A study of Mus musculus with 3 samples.

Results

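Of the MEIS2 CUT&Tag peaks that lay away from genes' ends in the embryonic mouse striatal primordium, 817 stood in tight runs of 4 or more. MEIS2 belongs to the TALE homeodomain proteins, which regulate transcription, and CUT&Tag uses an antibody to bring the Tn5 transposase to a chromatin protein, so that nearby DNA is cut and tagged for sequencing. All 3 libraries came from the lateral ganglionic eminence (LGE) of CD1 mouse embryos at embryonic day 14.5, 2 made with a mouse polyclonal antibody to MEIS2 and 1 with no primary antibody. The series' design text gives the embryos as wild type, and the labels give no difference between the groups other than the antibody. Nothing in the labels says whether the 2 MEIS2 libraries came from separate embryos, litters or cell preparations, so their agreement may be technical. MACS called peaks after repeated positions were dropped. That left 7618406 of 74259592 tags for the first MEIS2 library, 6559629 of 79760948 for the second and 6337375 of 72763762 for the no-antibody one. The redundant rates were 0.90, 0.92 and 0.91 in that order.

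The members were chosen by peak positions in all 3 lists. A replicate 1 peak on chromosomes 1 to 19 had to share at least 1 bp with a replicate 2 peak and none with a no-antibody peak, which 44673 peaks did. Its summit, the position of the tallest tag stack, had to lie more than 1 kb from both ends of every RefSeq gene, which left 31525 distal reproducible peaks. Members were distal peaks in runs of at least 4 in which each summit followed the previous one by at most 5 kb. The rule gave 817 members in 188 runs, 2.59% of the distal peaks. Because the rule used these positions, the counts of members and runs are a description. No test was made of any value below: by the rule the no-antibody list holds no peak, and so no value, at the members, and peaks of 1 library are not replicates of a condition.

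Most runs were small. Of the 188 runs, 156 had exactly 4 members, 22 had 5, and 10 had 6 or more, up to 12. Among the remaining 30708 distal peaks, called the other distal peaks below, 24991 stood alone, 4172 stood in 2086 pairs and 1545 stood in 515 groups of 3, just short of the run limit. The largest step inside a run was 4958 bp, and 2 steps fell between 4900 bp and the limit. The nearest distal summit beyond a run lay 5119 bp away, and 5 runs had one between 5 and 6 kb beyond an end. In replicate 2 the members rested on 787 distinct peaks, because 28 replicate 2 peaks each overlapped more than 1 member. Of the 188 runs, 164 had at least 4 distinct replicate 2 peaks.

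As background, TALE proteins such as MEIS and PBX bind DNA together, often with HOX or other homeodomain partners, and MEIS proteins recognise a short core, TGACAG. In the LGE, MEIS2 is expressed in progenitors and in young striatal projection neurons, downstream of the DLX factors. Factors of this kind often bind at enhancers, which can lie far from the gene they act on and can stand in clusters. A peak shows tags piled up at a place and not which gene it acts on.

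Sequences are shown for 2 members that lay on a gene's internal start site, because only windows around RefSeq start sites were at hand (build GRCm38.p6, the assembly that mm10 names), and sequence at the other members was not analysed here. In all, 4 of the 817 members, 0.490%, overlapped such a window of 250 bases before a start and 50 after it. The share was 3.30% over the other distal peaks, and 0.647% over those of them in groups of 3. The members' windows belong to Hivep2, Prkar1b, Grik5 and Gm33887, and 1 of the 4, that of Hivep2, held a match to the MEIS core. The Gm33887 window is not shown, and whether it is part of a repeated element was not tested. The 250 bases before the start are given 5′ to 3′ on the gene's strand, and capitals mark TGACAG or its reverse complement CTGTCA.
Hivep2, chr10:13966129-13966378, plus strand: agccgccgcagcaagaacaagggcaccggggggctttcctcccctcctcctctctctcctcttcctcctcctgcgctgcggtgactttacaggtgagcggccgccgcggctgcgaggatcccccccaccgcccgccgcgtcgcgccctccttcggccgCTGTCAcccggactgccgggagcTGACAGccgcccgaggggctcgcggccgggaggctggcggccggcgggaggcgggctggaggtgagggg
Prkar1b, chr5:139129753-139130002, minus strand: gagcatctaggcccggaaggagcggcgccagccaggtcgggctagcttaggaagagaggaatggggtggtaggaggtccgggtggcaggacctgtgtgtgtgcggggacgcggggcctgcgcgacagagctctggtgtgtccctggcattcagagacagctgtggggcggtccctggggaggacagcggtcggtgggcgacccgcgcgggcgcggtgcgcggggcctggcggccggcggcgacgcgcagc
The Hivep2 window, upstream of a start 4770 bp inside this zinc finger transcription factor gene, held 2 matches and was covered over all 250 bases by its replicate 1 peak and in part by the replicate 2 peak. The Prkar1b window, in the gene of a neuronal regulatory subunit of protein kinase A, held 0 matches and shared 233 bp with its replicate 1 peak. Neither printed window held its member's replicate 1 summit. That summit lay 461 bp before the start at Hivep2 and 184 bp after it at Prkar1b. The replicate 2 peaks at Grik5 and Gm33887 did not reach their windows. Over all 32851 RefSeq windows of this length, 15.9% held at least 1 match on either strand. A match is a description of letters and not of binding.

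The Prkar1b run showed how unequal neighbours could be. Its 4 members had fold enrichments, the caller's ratio of stacked tags to the local expectation, of 6.5, 9.59, 4.61 and 6.67 in replicate 1 and of 5.04, 10.3, 4.12 and 6.62 in replicate 2. The second member was the highest in both libraries, and the member on the start site was the lowest in both. At Hivep2 the fold enrichments were 3.24, 3.23, 4.61 and 4.61 in replicate 1, all under the median of 7.14 over the other distal peaks. In replicate 2 those 4 Hivep2 members met only 2 peaks, with fold enrichments of 5.31 and 5.02. At Grik5, a kainate receptor subunit gene, 1 member shared 27 bp with the window, and the other 3 of its run lay in the neighbouring gene Zfp574.

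The spacing of summits inside runs was far from even. Of 629 steps between neighbouring members, 114 (18.1%) fell in the 250 bp bin that starts at 1000 bp, and 71 (11.3%) fell in the one that starts at 4500 bp. The bins on either side of the latter held 12 and 10 steps. The 1000 bp bin was less separate, with 101 steps in the bin below it and 23 in the one above. The same 2 bins stood out among the steps of the other distal peaks, with 20.6% and 7.86% of their 3116 steps of up to 5 kb. The windows below were chosen after these steps were seen, so the counts in them describe the data and test nothing. With replicate 2 summits in place of replicate 1 summits, the 4500 bp bin held 70 steps, and the 750 and 1000 bp bins held 109 and 108. The median difference between replicates in the same step was 49 bp.

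A set of runs shared nearly the same layout. Of the 156 runs of 4, 128 had their longest step at an end. Only 1 step of a run of 4 is not at an end, so a large share follows from that alone. The longest step was not always much longer than the other steps of its run. The end peak set off by it is called the lone peak here. In 36 runs, picked by windows on their steps and called wide-spaced here, this long step was 4409 to 4767 bp (median 4603), the next step was 1074 to 1239 bp and the last was 874 to 1147 bp. Their span from first to last summit, limited by the same windows, was 6548 to 7014 bp. The lone peak lay at the lower coordinate in 23 of these runs and at the higher one in 13, and the runs were spread over 17 chromosomes. In 11 more runs, picked likewise and called close-spaced, the long step was 4437 to 4585 bp and was followed by steps of 330 to 526 bp and 620 to 791 bp. These 47 runs together were 188 of the 817 members. Chromosome 16 held 7 of them among its 17 runs, chromosome 4 held 6 among its 11 and chromosome 10 held 0 among its 10.

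**Figure D1:**
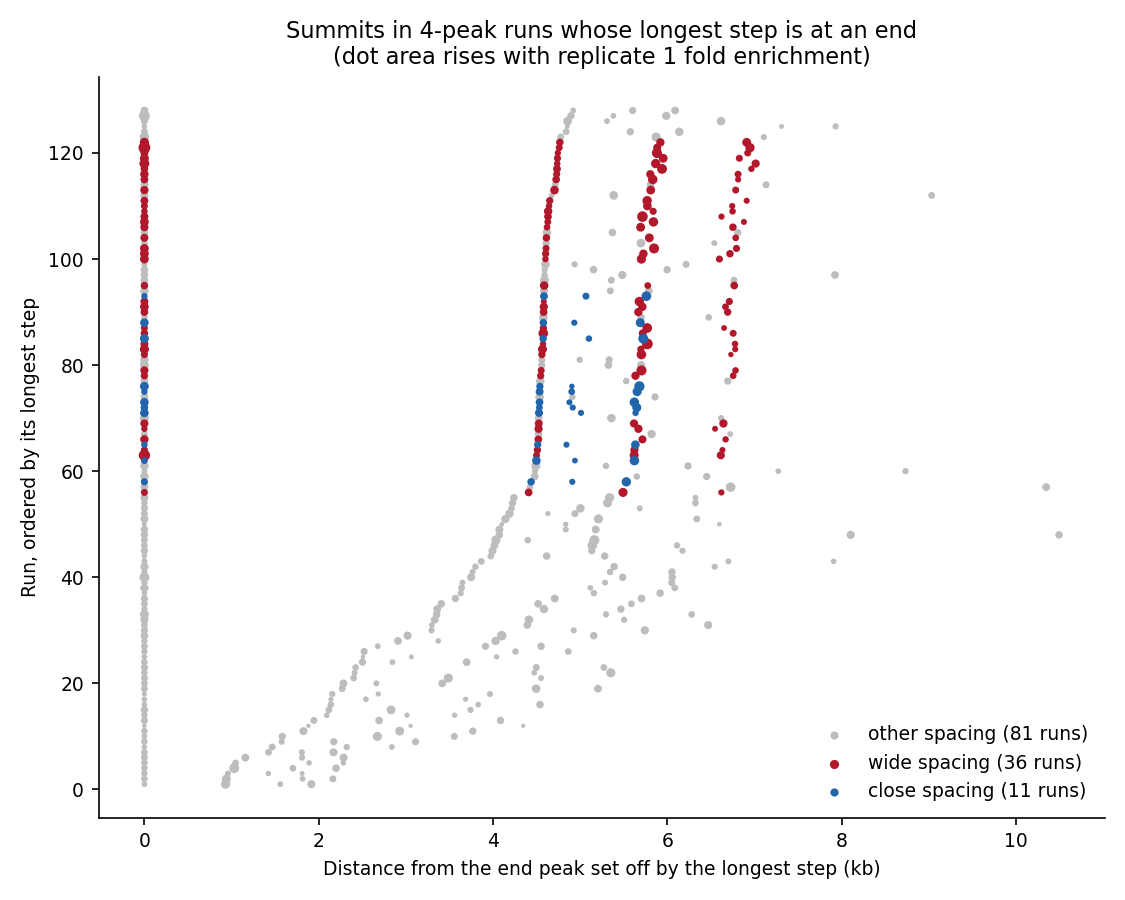
Summit positions in the 128 runs of 4 whose longest step is at an end, each row a run, with rows ordered by the longest step. Positions are plotted as the distance in kb from the end peak set off by that step. The 36 wide-spaced runs (red) and 11 close-spaced runs (blue) were picked by their steps and so line up, and some of the 81 other runs (grey) lie near the same tracks.

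The shared layout was met in groups of 3 as well. Of the 515 groups of 3 distal peaks, 183 (35.5%) had a step of 4400 to 4800 bp, 244 (47.4%) had one in the window of the wide-spaced middle step, and 124 had both. Among runs, 83 of 188 had the long step, 83 had the middle step and 46 had both. Counted over steps, the long window held 13.2% of steps in runs and 10.3% of those of up to 5 kb between other distal peaks, and the middle window held 18.1% and 20.6%. In the no-antibody library they held 2.42% and 9.87% of 537 steps of up to 5 kb, in windows picked from the MEIS2 steps. Only position defines these windows. Repeat annotation and sequence at the summits were not analysed here, so whether runs with a shared layout are copies of 1 repeated sequence was not tested.

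Within wide-spaced runs part of the order of fold enrichment was repeated in both replicates. Counting from the lone peak as position 1, the median fold enrichments in replicate 1 were 6.77, 5.66, 8.22 and 4.79. Replicate 2 gave 6.02, 6.11, 8.32 and 4.56, so positions 1 and 2 changed order. Median stacked tags were 21, 29, 34 and 19 in replicate 1 and 16, 25, 31.5 and 16 in replicate 2. The median local expectation in replicate 1 was lower at position 1, 1.935 tags, than at positions 2 to 4, 3.31 to 4.02 tags. Position 3 was the highest in 22 of 36 runs in replicate 1 and in 24 in replicate 2, while position 4 was the highest in 1 run in each. Ranges overlapped between positions: position 3 ran from 4.80 to 12.2 and position 4 from 2.99 to 9.12 in replicate 1. Close-spaced runs had their highest peak at the far end, position 4, in 10 of 11 runs in replicate 1 and in 9 of 11 in replicate 2, where in 2 of them it shared its peak with position 3, with medians of 9.14 and 9.18. Their position 3, the next summit along, had medians of 3.97 and 4.72. Some position 3 values in replicate 2, that of 4.72 among them, came from a peak shared with position 4.

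**Figure D2:**
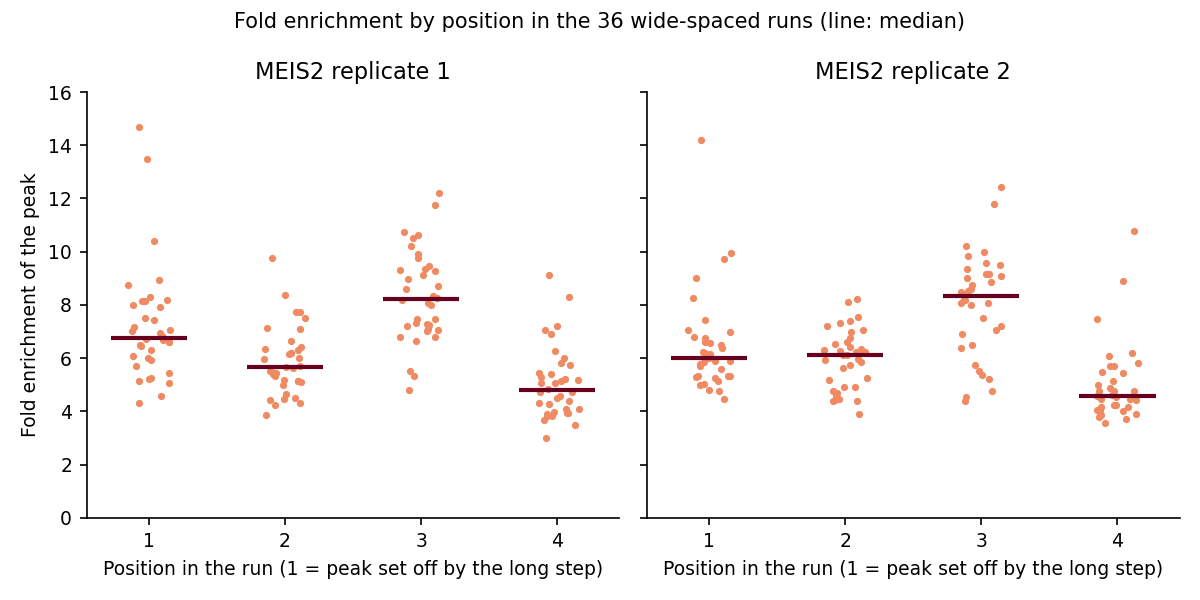
Fold enrichment of each peak (points) and the median (line) by position in the 36 wide-spaced runs, in replicate 1 (left) and replicate 2 (right). Position 3 has the highest median in both libraries, 8.22 and 8.32, and position 4 the lowest, 4.79 and 4.56.

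A few pattern runs lay wholly inside genes. For the wide-spaced runs the genes were 9 in number: Cacna2d1 (a calcium channel subunit), Hmox2 (a haem oxygenase), Pld1 (phospholipase D), Sirt5 (a mitochondrial deacylase), Ninj2, Nipal3, Pdzrn4, Pigk and Psd3. For the close-spaced runs they were Lsamp, a neuronal adhesion protein of the limbic system, and Patj, a cell polarity protein. Of the 7 wide-spaced runs whose gene's strand was at hand, 6 had the lone peak on the upstream side along the gene, and Sirt5 had it downstream. Lsamp and Patj also had it upstream. The wide-spaced run in Cacna2d1, at chr5:16284981-16291860, had a median fold enrichment of 5.26 in replicate 1 and 5.79 in replicate 2. Inside a protein-coding gene lay 25% of wide-spaced and 18.2% of close-spaced members. The share was 23.4% over all members and 44.7% over the other distal peaks.

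Members combined many tags with modest enrichment. Pileup, the number of stacked tags at the summit, had a median of 27 for members and 16 for the other distal peaks in replicate 1, and 24 and 12 in replicate 2. Fold enrichment went the other way, with medians of 5.12 and 7.14 in replicate 1 and of 5.06 and 6.38 in replicate 2. The quartiles overlapped: the members' were 3.91 to 6.46 and the others' 5.53 to 10.1 in replicate 1. The median member ranked at percentile 79.5 of all distal peaks by pileup but at percentile 18.0 by fold enrichment in replicate 1, and at 81.7 and 24.3 in replicate 2. Only 0.245% of members reached the top decile of fold enrichment in replicate 1, and 38.3% were in the bottom decile. Widths were alike, with medians of 307 bp and 331 bp.

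The level of tags expected around each peak stood between these measures. Worked back from the pileup and fold enrichment, its median was 3.72 tags for members and 1.07 for the other distal peaks in replicate 1, and 3.19 and 0.826 in replicate 2. The genome-wide mean was 0.701 and 0.568 tags. With no control file the caller takes this level from the surrounding DNA of the same library, so tags of neighbouring peaks can count toward it. How much they add was not tested. Groups of 3 lay between, with a median fold enrichment of 5.96 and an expected level of 2.89 tags in replicate 1.

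The replicates ordered the members alike. Spearman's rho between replicates over the 817 members was 0.803 for fold enrichment and 0.871 for pileup, against 0.740 and 0.801 over the other distal peaks. Without the runs of 6 or more members, rho over the members was 0.739 and 0.825. Neighbouring members are not independent points, and both libraries share genome and mappability. Summits moved by a median of 23 bp between replicates, against 35 bp for the others. The strongest member in replicate 1 was also the highest or joint highest in replicate 2 in 122 of 188 runs. Inside a run the strongest member had a median of 1.77 times the fold enrichment of the weakest in replicate 1, from 1.08 to 3.56 times.

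The runs with the highest fold enrichment were small. The first by the median of the lower replicate value was a wide-spaced run at chr2:99545269-99552597, 1914 kb from the nearest protein-coding gene, Lrrc4c (a netrin-G ligand). Its 4 members had fold enrichments of 14.7, 5.10, 6.80 and 9.12 in replicate 1 and of 14.2, 6.28, 7.06 and 10.8 in replicate 2. The lone peak of this run, at chr2:99545269-99545607, had the highest fold enrichment of all members by its lower replicate value, with pileups of 46 and 39 tags. Next came a run inside Rims2, a presynaptic active zone gene, at chr15:39239219-39247257, whose fold enrichments were 14.6, 5.91, 5.24 and 12.3 in replicate 1 and 8.93, 5.49, 7.42 and 12.8 in replicate 2. The following 3 runs were all wide-spaced and lay near Epha7 (an ephrin receptor, 1261 kb away), Mib2 (a ubiquitin ligase of Notch ligands, 7.5 kb away) and Adamts5 (a matrix protease, 174 kb away). Only the Adamts5 run among these 5 had a no-antibody peak inside it.

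The 10 members with the highest lower fold enrichment came from 10 different runs, all of 4 members. After the peaks near Lrrc4c and in Rims2 came 1 near Shisa9, the gene of an AMPA receptor accessory protein 76.0 kb away, with 12.3 in replicate 1 and 12.2 in replicate 2. The Lsamp peak, position 4 of its close-spaced run, had 10.98 and 11.1. The other 6 lay nearest Rabgap1l, Rap2b, Cdh2, Adarb2, Actr3 and Mat2b, at distances of 26.4 to 1130 kb, and had lower values of 9.77 to 10.9.

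The 10 runs of 6 or more members had high pileup and low fold enrichment. Their median pileup per run was 41 to 168 tags in replicate 1, against a median of 24.5 over the 178 smaller runs, and their median fold enrichment was 1.99 to 3.55, against a median of 5.56. The expected level around them had a median of 32.6 tags. The smaller runs overlapped them on each measure, with run medians of fold enrichment down to 1.94, of pileup up to 116.5 tags and of the expected level up to 59.6 tags. Replicate 2 gave run medians of 34.5 to 159 tags and fold enrichments of 1.84 to 3.87. Of these 10 runs, 9 had a no-antibody peak within 50 kb, against 73 of the 178 smaller runs (41.0%, Wilson 95% interval 34.1 to 48.4, which covers counting error only). Whether background tags shape these runs was not tested.

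**Figure D3:**
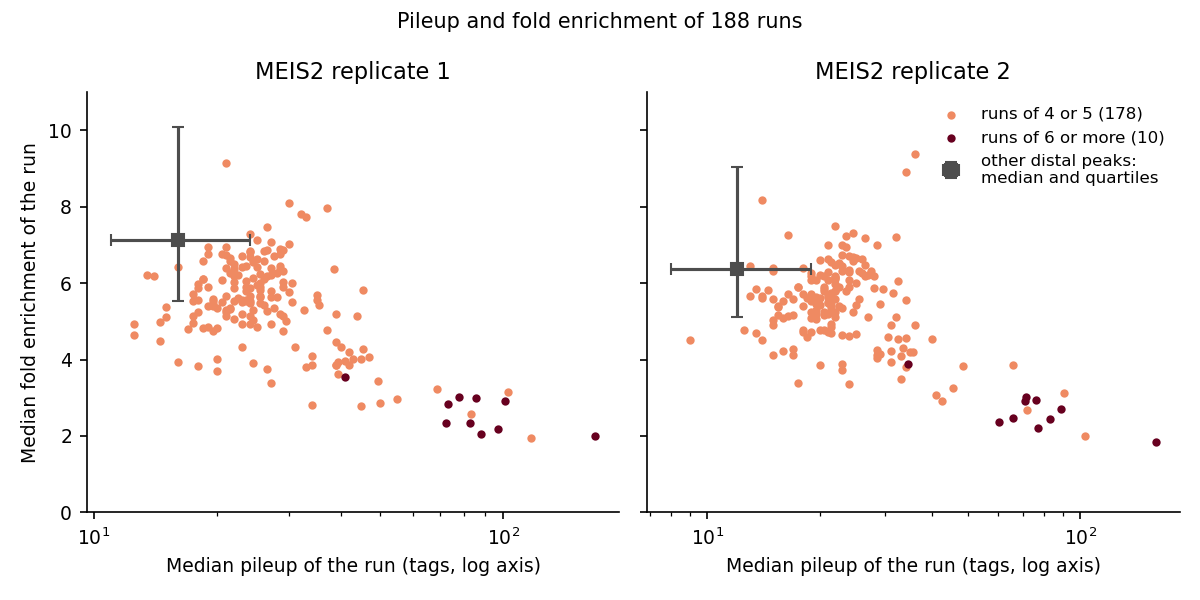
Median fold enrichment against median pileup (tags, log axis) for each of the 188 runs, in replicate 1 (left) and replicate 2 (right), with the median and quartiles of the other distal peaks as a grey cross. Runs of 6 or more members (dark) sit at the lower right in both libraries, at fold enrichments of 1.84 to 3.87.

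Of these large runs, 4 lay on a stretch of chromosome 6 between Hrh1, the histamine H1 receptor gene, and Atg7, an enzyme of autophagy. With a run of 4 beside them, this 147 kb stretch held 5 runs and 37 members. The longest, at chr6:114594879-114614970, had 12 members over 19.7 kb, median fold enrichments of 3.03 and 3.02 and median pileups of 78 and 71.5 tags. The no-antibody library had 26 peaks on the same stretch, so members there were the peaks that happened not to overlap them.

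The other run of 12 lay inside Flg, the filaggrin gene of the epidermis, at chr3:93280184-93292472. Its fold enrichments ran from 2.1 to 4.78 in replicate 1 and from 2.21 to 5.49 in replicate 2, with median pileups of 83 and 66 tags. No no-antibody peak lay inside it or within 50 kb. The run of 10 at chr9:3004030-3018081, 317 kb from Alkbh8 (a tRNA-modifying enzyme), had the highest pileups, 141 to 207 tags in replicate 1, and median fold enrichments of 1.99 and 1.84. It overlapped a no-antibody run of 11 peaks with a median pileup of 243 tags. Of the remaining large runs, the one of 8 members had 3 inside Gm40365 and 1 inside Gm40367. The others lay nearest Dsg2 (7 members, 12.3 kb away), Lama2 (7, 202 kb) and Ypel2 (6, 47.1 kb).

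Members lay inside genes in a smaller share than the other distal peaks. Of the members, 191 (23.4%, 20.6 to 26.4) lay inside a protein-coding gene, against 44.7% of the other distal peaks (44.1 to 45.3). A further difference was distance: 32.6% of members lay over 100 kb from every protein-coding gene, against 22.4%. The groups of 3 were close to the members in this, with 31.3%, and had 31.4% inside protein-coding genes. A reproducible peak at a gene end stood within 10 kb of 4.896% of members and of 10.7% of the others. Without the 10 large runs the share inside protein-coding genes was 23.8%, and over the runs with no no-antibody peak within 50 kb it was 27.4%. Intervals count each peak once, although members of a run share their place, so they are too narrow.

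**Figure D4:**
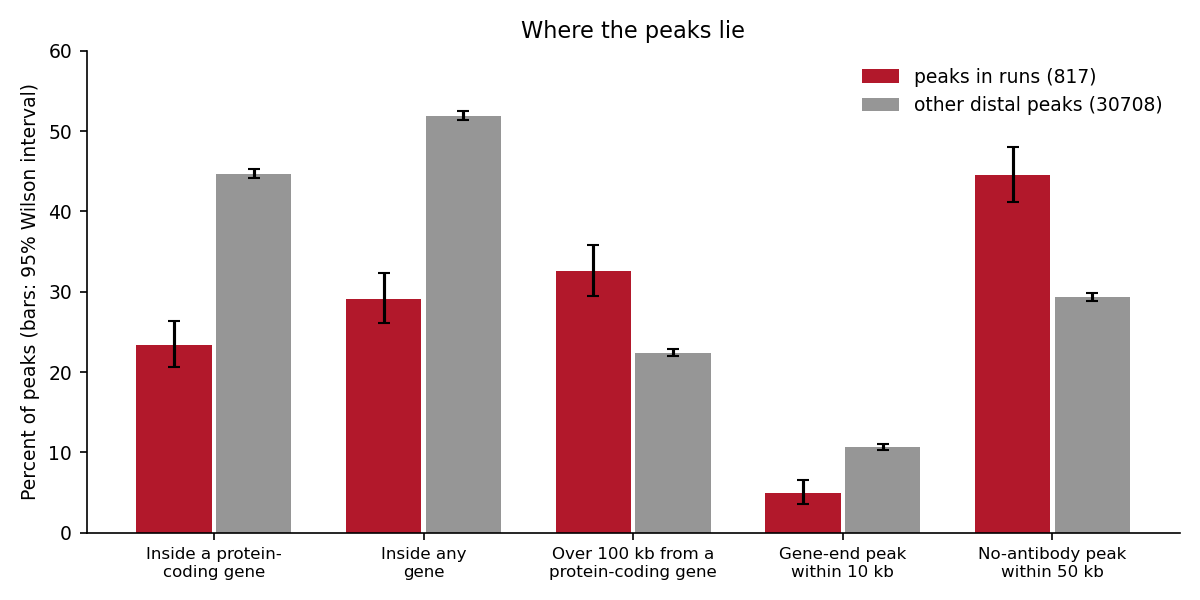
Percent of peaks in each kind of place for the 817 peaks in runs (red) and the 30708 other distal peaks (grey), with 95% Wilson intervals. Peaks in runs are lower for the share inside protein-coding genes (23.4% against 44.7%) and higher for a no-antibody peak within 50 kb (44.6% against 29.3%).

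Genes that held members were few. Of 20665 protein-coding genes, 47 had a member inside, with a median length of 73.4 kb against 17.5 kb over all of them. After Flg, the genes with the most members inside were Gm33887, Plcd3 (a phospholipase C), Ppat (an enzyme of purine synthesis), Zfp277 and Zyg11b (a ubiquitin ligase subunit), with 5 each. In Zyg11b, fold enrichments were 5.08 to 7.66 in replicate 1 and 4.98 to 7.17 in replicate 2. Mier3 had 4 inside and 8 within 50 kb, and 2210408I21Rik, Ahnak2 and Cacna2d1 had 4 each, the 10th place shared with other genes that held 4. The Ahnak2 members had the lowest fold enrichments of these genes, 1.85 to 2.18 in replicate 1, on a median pileup of 116.5 tags.

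Few listed genes had a member nearby, as was true of all genes. Across 17 gene lists with 294 genes in the gene table, 6 genes (2.04%) had a member inside or within 50 kb, against 1.12% of all protein-coding genes, and no listed gene had a member inside. A count of 0 in a list of this size is near that background. The count was 0 of 26 for LGE regulators, 0 of 12 for D1 and 0 of 12 for D2 projection neuron markers, 0 of 16 for spiny neuron and GABA markers, 0 of 18 for TALE homeobox genes, 0 of 39 for Hox genes and 0 of 28 for axon guidance genes. The nearest member was 16.3 Mb from Meis2, 3.39 Mb from Dlx1, 3.41 Mb from Dlx2, 1.15 Mb from Six3 and 7.63 Mb from Zfp503, a zinc finger gene of striatal neurons. These distances leave out the other distal peaks, and no distance over all genes is set beside them. Lists of dorsal cortical neurons (15 genes), dorsal LGE and olfactory bulb (10), oligodendrocyte lineage (9), and vessels and microglia (15) also had none.

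The listed genes with a run nearby came from other lists, and 5 of them are described here. Gli3, a transcriptional effector of hedgehog signalling and 1 of 19 genes of radial glia and progenitors, had a wide-spaced run 25.2 to 32.0 kb away. That run's fold enrichments were 5.06, 7.06, 5.35 and 7.53 in replicate 1 and 4.75, 5.37, 4.41 and 6.76 in replicate 2, and 1 no-antibody peak lay within 50 kb. Fgf8, a growth factor of the forebrain midline, had a run 30.6 to 37.0 kb away with fold enrichments of 5.57, 4.43, 6.19 and 7.45, and of 3.56, 5.26, 4.28 and 6.28 in replicate 2. Gli3 and Fgf8 made 2 of 30 genes of Wnt, hedgehog, Fgf and Bmp signalling.

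Satb1, a chromatin organiser of interneurons and 1 of 13 genes of MGE and interneurons, had a run 32.3 to 37.7 kb away, with fold enrichments of 7.24, 6.01, 3.46 and 3.84 and, in replicate 2, of 8.33, 5.52, 3.66 and 3.86. Numb, an inhibitor of Notch and 1 of 21 Notch pathway genes, had a run 39.0 to 43.8 kb away inside another gene, Heatr4, with fold enrichments of 5.12 to 8.30 in replicate 1 and 4.04 to 9.81 in replicate 2. Ttr, the thyroxine carrier transthyretin and 1 of 18 genes of liver, muscle and pancreas, lay 34.9 to 47.4 kb from the large run of 7 near Dsg2. That run's fold enrichments were 1.97 to 3.66 in replicate 1 and 2.02 to 4.05 in replicate 2. It had 2 no-antibody peaks within 50 kb.

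The no-antibody library had few runs of its own. By the same distance and spacing limits, 40 of its 8459 distal peaks (0.473%) stood in 8 runs, and 3 of these overlapped a MEIS2 run. That library had far fewer peaks, so fewer were close together, and the shares are not at matched density. Inside the 188 MEIS2 runs lay 29 no-antibody peaks in 22 runs, and 82 runs (43.6%) had one within 50 kb. Taken over peaks, 44.6% of members and 29.3% of the other distal peaks had a no-antibody summit within 50 kb, and without the large runs the members' share was 39.9%. Of the 36 wide-spaced runs, 7 had a no-antibody peak inside and 12 had one within 50 kb. For the 106 runs with none within 50 kb, the median fold enrichments were 5.31 and 5.34. Of their steps, 15% were in the long window, against 13.2% over all runs and 14.9% without the large runs.

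Runs were also rebuilt from replicate 2 summits, by peaks that met a replicate 1 peak and no no-antibody peak. This gave 955 members in 219 runs out of 31927 distal peaks. Of the 188 replicate 1 runs, 166 (88.3%) overlapped a rebuilt run, and 166 of the 219 rebuilt runs (75.8%) overlapped a replicate 1 run. Among the 47 wide-spaced and close-spaced runs, 44 were met again. In the rebuilt runs 11.8% of 736 steps fell in the long window and 13.9% in the middle window. The rule had already asked for overlap with replicate 2, so this is not an independent repeat.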

How the data were processed

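CUT&Tag was run on E14.5 LGE cells with a MEIS2 antibody (2 libraries) or none (1 library). Per the file headers, the authors called peaks in each library alone with MACS 2.2.7.1 without a control file, while the submitters' processing notes name MACS2 2.1.4, Bowtie2 2.3.4, Picard, Trimmomatic and mm10. The deposited pileup is a signal, the tags stacked at the summit, with no scaling for depth. The fold enrichment, as deposited, is a ratio of the 2 pileups, observed over locally expected, with 1 added to both. The deposited −log10 p-values and −log10 q-values are the caller's, and peak positions were used as deposited, 1-based. Scores are the authors', and were compared within a list or as ranks.

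From these, runs, steps and overlaps (at least 1 bp) were computed in Python 3.11.15 with pandas 2.3.3, and the run rule was tested on simulated positions. The expected level was worked back from the ratio. Genes came from RefSeq's GRCm38.p6 table without exons, so exon, intron and UTR were not told apart. The planned search for MEIS motifs at summits needs sequence not used here. The members and gene lists were chosen with earlier results of these data known. Genes and runs were named by rule: the runs with most members (10) and highest lower-replicate fold enrichment (5), the 10 strongest members, the 10 genes with most members inside, up to 4 listed genes per list, and Meis2, Dlx1, Dlx2, Six3 and Zfp503. Genes holding wide-spaced or close-spaced runs, and those at internal start sites, were chosen after their values were seen. Other settings varied the step, run size, gene distance, overlap, q, chromosomes, no-antibody overlap and replicates. The result for 1 listed gene is not reported here.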

Additional observations from a re-analysis of the deposited data

Results flagged for a closer look

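The rule for members used chromosomes 1 to 19. Chromosome X, left out of it, held 62 peaks in 15 runs by the same limits, 3.07% of its 2020 distal peaks, while the no-antibody library had 0 peaks in runs among its 955 distal peaks there. This was picked out because it is signal outside the chromosomes of the rule. The no-antibody list is sparser, so its count of 0 is not at matched density. Chromosome Y held 9 in 2 runs. Over both, the median fold enrichment in replicate 1 was 5.31, and 9.26% of 54 steps fell in the long window.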

How the results depend on the processing

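The planned settings below changed one choice each, and each set of values is compared with 817 members in 188 runs, 2.59% of distal peaks, a median replicate 1 fold enrichment of 5.12, 23.4% of members inside protein-coding genes and 1.12% of protein-coding genes with a member inside or within 50 kb. Steps of up to 2.5 kb left 215 members in 48 runs, 0.682% of distal peaks, with a median fold enrichment of 4.33 and 0.242% of genes. Steps of up to 10 kb gave 1680 in 379 runs, 5.33%, with 5.57, 38.04% inside genes and 3.43% of genes. Runs of 3 or more gave 2362 in 703 runs, 7.49%, with 5.67, 28.6% and 4.18%. Runs of 5 or more gave 193 in 32 runs, 0.612%, with 3.81 and 0.252% of genes. A −log10 q of at least 5 in both MEIS2 lists gave 430 in 95 runs, 2.05%, with 4.98, 26.5% and 0.653%. An overlap of 50% of both peaks gave 1.96% of distal peaks, 5.07, 19.9% and 0.716%. The 50% limit also applied to overlap with no-antibody peaks, so peaks with a smaller overlap there were kept. With overlap with no-antibody peaks allowed, the values were 3.24% of distal peaks, 5.03 and 1.39% of genes. Positions from replicate 2 gave 2.99%, 5.00 and 1.33%. That 5.00 is a median of replicate 2 fold enrichments, which was 5.06 for the 817 members. Gene ends of protein-coding genes only gave a median of 5.02 and 1.34% of genes, and a distance of 2.5 kb from gene ends gave 0.832% of genes. Inside the gene only, 0.227% of protein-coding genes had a member, and 1.88% had one within 100 kb.

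Without 1 of the MEIS2 libraries, no overlap was asked for, and the values ran from 1516 members in 344 runs (without replicate 1) to 2132 in 490 (without replicate 2), 2.71% to 4.12% of distal peaks, medians of 4.98 to 4.99, 27.9% to 34.4% inside genes and 2.14% to 3.65% of genes. The median without replicate 1, 4.99, was of replicate 2 fold enrichments. 3 further settings were chosen after seeing the data. Without the runs of 6 or more, 2.33% of distal peaks and a median of 5.34 were left. Only runs with no no-antibody peak within 50 kb were 446 members in 106 runs, 1.41%, with 5.31, 27.4% and 0.687%. Only runs with at least 4 distinct replicate 2 peaks were 2.28% of distal peaks. Of 98 recomputed values, 35 stayed within 1.5 times (counts), the Wilson interval (shares) or the spread of 0.0438 between the replicates' medians. No peak interval held several summits, so that setting was not run, and the motif search was not run. No paired analysis was possible because the no-antibody group has 1 library and no value comes from a test.

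The members depend most on the step, the run size and the need for both replicates. The no-antibody list removes peaks only where it called one, so weaker background is not removed. Tags kept after removal of repeated positions were 6337375 to 7618406 per library, and a member can rest on as few as 9 tags in replicate 1 and 8 in replicate 2.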
